A study of Homo sapiens with 4 samples.

Results

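The SR splicing factor genes are 10 human genes (SRSF1, SRSF2, SRSF3, SRSF4, SRSF5, SRSF6, SRSF7, SRSF9, SRSF10 and SRSF11) out of 19974 protein-coding genes on chromosomes 1 to 22 and X. They were taken by name, and each was followed from 5000 bp before its start to 5000 bp after its end in the RefSeq gene table (GRCh38). These windows held 56 of the 26387 RNA polymerase II (Pol II) peaks of NKAP_KD cells and 51 of the 36345 peaks of NC cells. The measurement was chromatin immunoprecipitation followed by sequencing (ChIP-seq) with a Pol II antibody from Active Motif in U2OS, a human osteosarcoma cell line. Both groups were transfected with siRNA by Lipofectamine RNAiMAX for 48 h and fixed with 1% formaldehyde for 10 min. The NKAP_KD group received an siRNA against NKAP, a nuclear RNA-binding protein known to take part in splicing, and carries the genotype label NKAP KD. The NC group received the siRNA called NC and carries the genotype label control. The labels give 1 ChIP library and 1 input library per siRNA, and only the ChIP peak lists were analysed here. With 1 ChIP library per condition, no difference below has a replicate check and no test between conditions was made.

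SR proteins join an RNA recognition motif to a domain rich in arginine and serine. They bind exonic enhancers in nascent transcripts and help recruit the spliceosome to nearby splice sites, often while Pol II is still transcribing. Their arginine and serine domain is phosphorylated by the SRPK and CLK kinases, and TNPO3 carries the proteins into the nucleus. Many SR genes limit their own output by including a poison exon that sends the transcript to nonsense-mediated decay.

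Start regions of 8 of the 10 members are printed here as examples of the sequence under the start peaks described below, 250 bases before to 50 after the listed start, from RefSeq promoters of GRCh38.p14. The table gave 11 starts for 9 of the 10 genes, with a pair of starts each for SRSF7 and SRSF11, while SRSF2 had no entry. Each runs 5′ to 3′ on the strand of its gene, in lower case. Capitals mark matches on either strand to the TATA box (TATAAA), the CCAAT box (searched by those letters), the core of the YY1 motif (CCATNTT), an ETS factor motif (CCGGAAGT), the core of the cyclic AMP response element or CRE (TGACGT), a palindrome known from housekeeping promoters (CTCGCGAG) and the core of the NRF1 motif (GCATGCGC). The ETS and CRE matches of SRSF5 share a base. SRSF6 and SRSF9 have no match. SRSF9 is shown because it alone had more start reads per depth in NKAP_KD cells. SRSF6 is shown because the interval of its ratio lay below 1, as did those of SRSF2 and SRSF10.
SRSF1 promoter, chr17:58007197-58007496, minus strand: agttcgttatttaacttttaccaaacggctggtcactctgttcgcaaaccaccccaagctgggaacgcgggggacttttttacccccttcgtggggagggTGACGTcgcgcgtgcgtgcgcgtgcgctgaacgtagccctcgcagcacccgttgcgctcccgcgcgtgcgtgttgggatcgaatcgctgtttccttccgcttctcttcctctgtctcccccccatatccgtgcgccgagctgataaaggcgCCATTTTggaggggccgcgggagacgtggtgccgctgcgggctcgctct
SRSF3 promoter, chr6:36594112-36594411, plus strand: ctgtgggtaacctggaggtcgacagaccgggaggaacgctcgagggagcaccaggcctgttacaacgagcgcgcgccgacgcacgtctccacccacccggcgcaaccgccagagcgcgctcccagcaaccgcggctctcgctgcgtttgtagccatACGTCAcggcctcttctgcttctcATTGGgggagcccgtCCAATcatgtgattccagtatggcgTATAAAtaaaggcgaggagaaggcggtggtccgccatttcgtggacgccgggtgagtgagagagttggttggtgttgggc
SRSF5 promoter, chr14:69766892-69767191, plus strand: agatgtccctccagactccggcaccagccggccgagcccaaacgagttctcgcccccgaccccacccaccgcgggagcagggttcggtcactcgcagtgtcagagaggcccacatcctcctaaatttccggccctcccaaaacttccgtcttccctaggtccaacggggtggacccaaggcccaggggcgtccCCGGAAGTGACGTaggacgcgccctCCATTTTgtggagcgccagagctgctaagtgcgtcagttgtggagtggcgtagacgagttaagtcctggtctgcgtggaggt
SRSF6 promoter, chr20:43457646-43457945, plus strand: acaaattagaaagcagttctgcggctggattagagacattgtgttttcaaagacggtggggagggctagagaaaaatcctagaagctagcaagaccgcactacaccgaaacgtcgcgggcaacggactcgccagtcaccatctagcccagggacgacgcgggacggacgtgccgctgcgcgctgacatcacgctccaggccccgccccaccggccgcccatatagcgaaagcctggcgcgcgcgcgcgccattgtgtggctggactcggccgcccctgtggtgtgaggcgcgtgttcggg
SRSF7 inner-start promoter, chr2:38751312-38751611, minus strand: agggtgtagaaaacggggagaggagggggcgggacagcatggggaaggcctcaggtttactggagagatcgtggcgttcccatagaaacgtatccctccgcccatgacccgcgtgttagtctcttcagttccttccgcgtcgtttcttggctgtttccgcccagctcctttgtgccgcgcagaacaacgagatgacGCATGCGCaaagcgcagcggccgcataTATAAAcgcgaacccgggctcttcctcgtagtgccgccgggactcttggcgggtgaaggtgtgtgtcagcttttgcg
SRSF9 promoter, chr12:120469699-120469998, minus strand: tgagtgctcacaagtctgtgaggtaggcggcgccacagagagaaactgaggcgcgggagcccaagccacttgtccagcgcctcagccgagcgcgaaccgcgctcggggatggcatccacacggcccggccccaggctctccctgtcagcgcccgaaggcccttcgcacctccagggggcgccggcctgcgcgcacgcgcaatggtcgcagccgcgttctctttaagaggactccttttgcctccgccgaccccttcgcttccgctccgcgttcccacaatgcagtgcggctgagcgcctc
SRSF10 promoter, chr1:23980278-23980577, minus strand: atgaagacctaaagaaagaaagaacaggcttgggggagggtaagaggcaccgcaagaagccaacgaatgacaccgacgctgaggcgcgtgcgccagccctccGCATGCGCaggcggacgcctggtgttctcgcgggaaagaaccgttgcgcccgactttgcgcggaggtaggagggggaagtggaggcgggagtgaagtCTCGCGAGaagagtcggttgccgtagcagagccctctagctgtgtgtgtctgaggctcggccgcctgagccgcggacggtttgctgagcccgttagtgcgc
SRSF11 inner-start promoter, chr1:70221130-70221429, plus strand: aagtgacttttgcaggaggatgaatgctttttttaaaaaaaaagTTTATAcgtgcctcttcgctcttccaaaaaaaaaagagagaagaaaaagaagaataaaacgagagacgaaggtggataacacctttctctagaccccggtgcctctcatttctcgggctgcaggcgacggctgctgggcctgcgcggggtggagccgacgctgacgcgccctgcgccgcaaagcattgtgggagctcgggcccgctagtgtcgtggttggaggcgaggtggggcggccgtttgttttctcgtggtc

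The motifs were chosen after the sequences were seen, so their matches are descriptions. SRSF3 carried TATAAA from 30 to 25 bases before its start, and SRSF7 carried it from 27 to 22 bases before its inner start. TATAAA stood in 9.46% of the 22132 promoters of the table. SRSF10 carried CTCGCGAG from 51 to 44 bases before its start, SRSF4 carried it from 10 to 3 bases before its own, and 1.38% of all promoters held it. The NRF1 core stood at SRSF7, from 54 to 47 bases before the inner start, at SRSF10 and in 3.74% of all promoters. SRSF1 and SRSF5 carried CCATNTT, as did 14.6% of all promoters, and in SRSF1 the match began 1 base past the start. TGACGT was found at SRSF1, SRSF3 and SRSF5 and in 8.92% of all promoters. CCGGAAGT was found at SRSF4 and SRSF5 and in 5.35%, and the CCAAT box stood at 2 places in SRSF3 and in 34.6% of all promoters. The 11 windows held 17 to 48 CpG dinucleotides, with a median of 30, against a median of 21 over all promoters, at a like GC content (62.7% and 62.3%).

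Pol II was listed at all 10 SR genes in both libraries, with a peak on the start and, at most of them, a chain of weaker peaks through the gene and past its end. Of all protein-coding windows, 66.5% held an NKAP_KD peak, 70.1% an NC peak and 64.7% both. At least 2 peaks in each list were found at 9 of the 10 SR genes, SRSF2 being the exception with a single NC peak, and at 28.2% of all genes. Peaks covered 22.9% of the SR windows in NKAP_KD cells and 35.1% in NC cells, against 1.79% of all protein-coding windows in NKAP_KD cells and 2.85% in NC cells. The all-gene shares pool every window, also those without a peak, and these windows are longer on average than the SR windows. The comparison is thus not matched for gene length or for the presence of a peak. A peak of fold 20 or more over the local background lay at 8 of the 10 genes in the NKAP_KD list, where 9.06% of all genes had one. In the NC list such a peak lay at 9 of the 10 genes, against 17.7% of all genes. SRSF9 had none in either list, and SRSF11 had none in the NKAP_KD list. These folds are the authors' values and depend on the background of each library, so they are used only within a list.

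**Figure D1:**
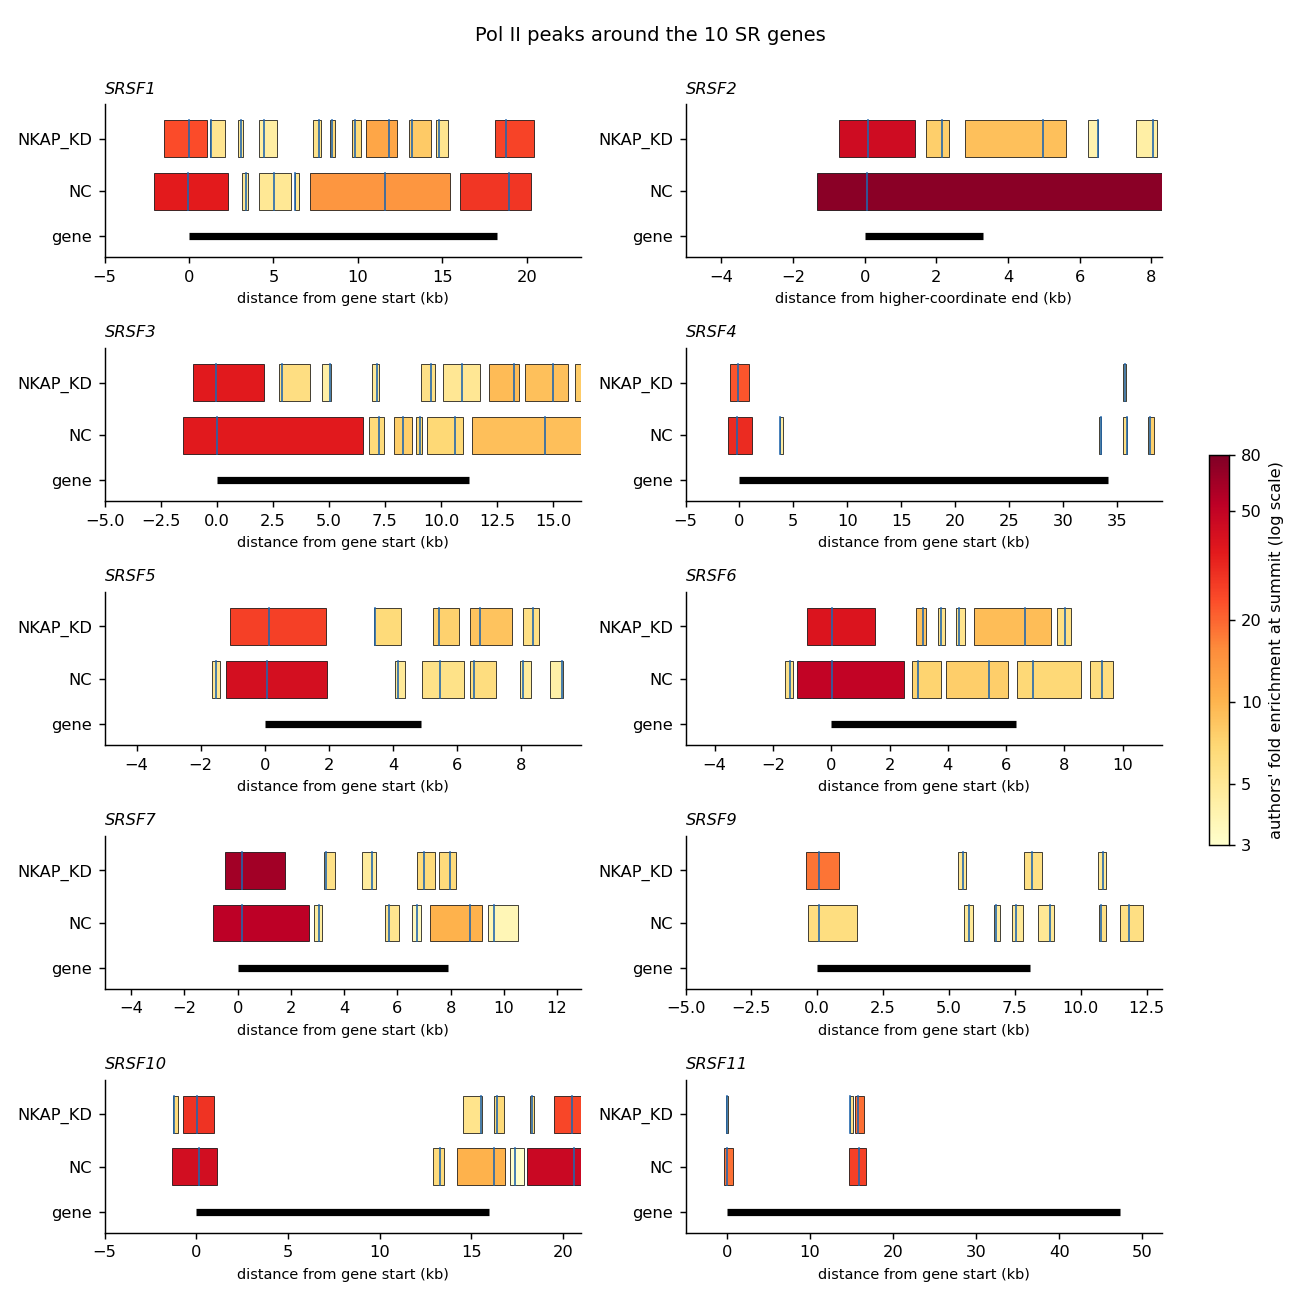
Maps of the Pol II peaks in the windows of the 10 SR genes, NKAP_KD above NC, with the distance from the gene start (for SRSF2, from its higher-coordinate end) in kb on the x axis. Boxes are peaks coloured by the authors' fold enrichment on a log scale, blue lines are summits and black bars are the genes; the highest folds lie on gene starts except at the end of SRSF1 in NKAP_KD cells (25.3), past SRSF10 in NC cells (46.3) and at SRSF11, where they lie on the inner start in both lists (18.8 in NKAP_KD, 25.9 in NC), and the NC peaks of more than 5000 bp at SRSF1, SRSF2 and SRSF3 stand over several shorter peaks of the NKAP_KD list.

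The 2 libraries differed in depth. The reads at each summit were recovered from the authors' fold and p-value, and from these the NKAP_KD library had 0.857 times the depth of the NC library. The weakest peak had 8 reads in each list, and the median peak had 19 in NKAP_KD cells and 18 in NC cells. A stretch with no peak can therefore hold Pol II below the authors' threshold. Counts below are reads stacked on a summit. Their ratio per depth, NKAP_KD over NC, has a 95% exact binomial interval that covers counting error only, not the error of the depth estimate or of biology.

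The start peaks held fewer reads per depth in NKAP_KD cells at 9 of 10 SR genes, taking the stronger start of SRSF11. The share over all genes with a start peak in both lists was 67.8%, and it was 79.5% among genes whose NC start peak had at least 36 reads, the lowest value of an SR gene. The median ratio was 0.790 over the SR genes, 0.898 over 8940 genes and 0.856 over the 5314 genes with at least 36 reads. The middle 90% of the 8940 genes ran from 0.611 to 1.37. The median SR start peak held 82.5 reads in NKAP_KD cells and 124 in NC cells, against 31.0 in NKAP_KD cells and 40.0 in NC cells over all genes. The floor of 36 reads does not match other genes to the SR start peaks in height, and a comparison at like height was not made. Summits of the 2 lists lay 6 to 134 bp apart. In both libraries the start summits thus lay close to the listed starts, the farthest being that of SRSF4 in NC cells.

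SRSF3, SRSF7 and SRSF1 encode SR proteins that shuttle between nucleus and cytoplasm. SRSF3 (chromosome 6, 36594362 to 36605600, plus strand) had the most start reads of the SR genes, 155 in NKAP_KD cells and 214 in NC cells, a ratio per depth of 0.845 (0.683 to 1.04). Its summits lay 25 bp before the start in NKAP_KD cells and 5 bp before it in NC cells. By coordinate, the NKAP_KD summit fell on the last base of the TATA box printed above and the NC summit past it. The summits are 20 bp apart, in lists whose narrowest peaks are 225 bp (NKAP_KD) and 229 bp (NC). No difference in the position of Pol II is read from this. The fold was 36.1 in the NKAP_KD list and 36.0 in the NC list, while the local background was 3.24 reads in NKAP_KD cells and 4.98 in NC cells.

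SRSF7 (chromosome 2, 38743599 to 38751494, minus strand), whose protein also holds a zinc knuckle, had 143 start reads in NKAP_KD cells and 195 in NC cells, a ratio per depth of 0.856 (0.685 to 1.07). Its NKAP_KD fold of 63.4 was rank 7 of the 26387 peaks of that list, and its NC fold of 52.5 was rank 85 of the NC list. Ranks from lists of unlike length show no change. The background at this summit was 1.19 reads in NKAP_KD cells and 2.74 in NC cells. Its summits lay 34 bp past the inner start in NKAP_KD cells and 28 bp past it in NC cells, that is 167 bp past the outer start in NKAP_KD cells and 161 bp in NC cells. The inner start is the one with the TATA box in the window printed above.

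SRSF1 (chromosome 17, 57989038 to 58007246, minus strand), a regulator of splice site choice and a known oncoprotein, had 82 start reads in NKAP_KD cells and 122 in NC cells, a ratio per depth of 0.784 (0.585 to 1.05). Its summits lay 9 bp before the start in NKAP_KD cells and 58 bp before it in NC cells. A second strong peak covered its end, with 81 reads in NKAP_KD cells and 78 in NC cells. That peak also reached VEZF1, a neighbouring zinc finger gene (reached means a peak on the gene or within 1000 bp of it), so its reads cannot be assigned to SRSF1 alone. SRSF9 (chromosome 12, 120461672 to 120469748, minus strand) encodes a close relative of SRSF1. It had 41 start reads in NKAP_KD cells and 36 in NC cells, a ratio per depth of 1.33 (0.829 to 2.14), the only one of the 10 above 1. Its fold was 18.1 in the NKAP_KD list and 6.19 in the NC list, with a background of 1.24 reads in NKAP_KD cells and 4.98 in NC cells. The start peak also reached DYNLL1, the dynein light chain gene, in both lists, and the other peaks reached GATC.

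SRSF2 encodes an SR protein that stays in the nucleus and is also known to help release paused Pol II. The gene (chromosome 17, 76734115 to 76737411) had 143 reads in NKAP_KD cells and 210 in NC cells at its higher-coordinate end, a ratio per depth of 0.795 (0.638 to 0.987). This interval lay below 1 but held the all-gene median of 0.898. The NC fold of 74.7 was rank 10 of that list, and the NKAP_KD fold was 44.1. The single NC peak was 10169 bp wide and covered the whole gene, with 5 NKAP_KD peaks inside it. These peaks also reached METTL23 and MFSD11, so the signal cannot be assigned to SRSF2 alone.

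SRSF4, SRSF5 and SRSF6 encode SR proteins with a second RNA recognition motif, and a long arginine and serine domain in the case of SRSF4 and SRSF6. SRSF6 (chromosome 20, 43457896 to 43464243, plus strand) had 124 start reads in NKAP_KD cells and 186 in NC cells, a ratio per depth of 0.778 (0.615 to 0.982). The interval was again below 1 and again held the all-gene median of 0.898. SRSF5 (chromosome 14, 69767142 to 69772005, plus strand) had 83 in NKAP_KD cells and 125 in NC cells, with a ratio of 0.775 (0.580 to 1.03). SRSF4 (chromosome 1, 29147743 to 29181900, minus strand) had 46 in NKAP_KD cells and 69 in NC cells, with a ratio of 0.778 (0.524 to 1.15). The SRSF4 start peak also reached MECR, a gene of mitochondrial fatty acid synthesis. The ratios of these 3 genes lay far closer together than their counting error. The SRSF6 summits lay 23 bp past the start in NKAP_KD cells and 39 bp past it in NC cells. Those of SRSF5 lay 138 bp past the start in NKAP_KD cells and 69 bp past it in NC cells.

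SRSF10 encodes a splicing repressor that acts when dephosphorylated, as in heat shock. The gene (chromosome 1, 23964347 to 23980327, minus strand) had 58 start reads in NKAP_KD cells and 106 in NC cells. Its ratio per depth was 0.639 (0.455 to 0.888), the lowest apart from the outer start of SRSF11, and inside the middle 90% of all genes. The interval lay below 1 and below the all-gene median of 0.898. It held the median of 0.856 over genes with at least 36 NC start reads. SRSF11 encodes a protein that binds the splicing factor U2AF2. The gene (chromosome 1, 70205696 to 70253052, plus strand) has an outer start and an inner start, 15684 bp further in, and Pol II peaks lay on both. The inner start had 42 reads in NKAP_KD cells and 58 in NC cells, a ratio per depth of 0.845 (0.554 to 1.28). The outer start, whose peak also reached LRRC40, had 21 in NKAP_KD cells and 40 in NC cells, a ratio of 0.613 (0.343 to 1.06). The inner start thus held the larger peak in both libraries, and the intervals of the 2 ratios overlap. The summit at the inner start lay 53 bp past it in NKAP_KD cells and 151 bp past it in NC cells.

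**Figure D2:**
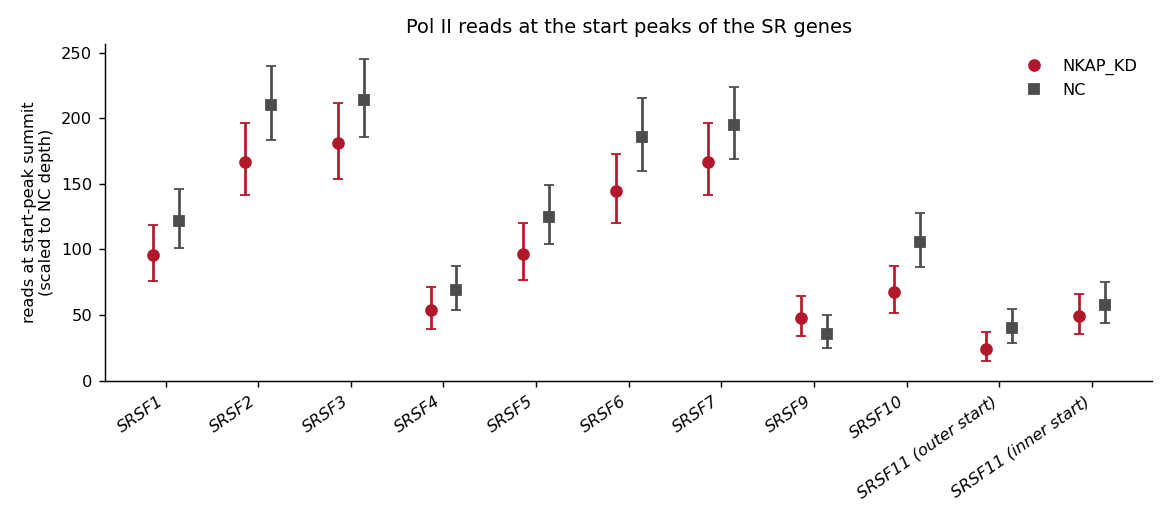
Reads at the summit of each start peak of the SR genes, NKAP_KD (circles) left of NC (squares), with the NKAP_KD reads divided by the depth ratio of 0.857 so that both stand at NC depth. Bars are 95% exact Poisson intervals of the reads in 1 library per condition; the NKAP_KD point lies below the NC point at every start but that of SRSF9.

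Less of every SR window lay under peaks in NKAP_KD cells. Covered lengths and peak widths, here and below, were not corrected for depth. NKAP_KD peaks were called at 0.793 times the NC depth, and that list is the shorter one. How far this lowers the covered lengths was not tested, so they do not by themselves show less Pol II. All 10 windows were less covered there, as were 86.1% of the protein-coding genes covered in either list and 87.3% of the 12932 covered in both, so the direction was that of most genes. Covered length summed to 59053 bp in NKAP_KD cells and 90432 bp in NC cells, a ratio of 0.653, against 0.627 over all protein-coding windows. The median ratio per gene was 0.617 for the SR genes and 0.677 for all genes covered in both lists, whose middle 90% ran from 0.285 to 1.26. None of the 10 fell under a ratio of 0.5, which 23.2% of all genes did. With equal numbers of strongest peaks in each list, the summed ratio was 0.702 for the SR genes and 0.696 for all genes. The mean width of the peaks in the SR windows was 1096 bp in NKAP_KD cells and 1899 bp in NC cells, against 906 bp over the whole NKAP_KD list and 1063 bp over the whole NC list. The median widths lay closer, 698 bp in NKAP_KD cells and 812 bp in NC cells, against 656 bp over the whole NKAP_KD list and 681 bp over the whole NC list.

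The ratio of covered length ran from 0.550 at SRSF10 to 0.984 at SRSF5. SRSF10 had 5170 bp covered in NKAP_KD cells and 9395 bp in NC cells. Of these, 2183 bp in NKAP_KD cells and 4594 bp in NC cells lay past its end, on peaks that reached PNRC2. The low ratio of SRSF10 therefore cannot be assigned to this gene alone. SRSF9 had 2561 bp in NKAP_KD cells and 4593 bp in NC cells (0.558), so that its window was less covered although its start reads per depth were not fewer. All peaks of SRSF9, like those of SRSF2, also reached neighbouring genes. SRSF4 stood at 0.559, SRSF7 at 0.587, SRSF11 at 0.601, SRSF6 at 0.633, SRSF1 at 0.638, SRSF2 at 0.670 and SRSF3 at 0.689. SRSF3 was the most covered window in both libraries, 52.8% in NKAP_KD cells and 76.7% in NC cells. SRSF11 was the least covered, 3.24% in NKAP_KD cells and 5.39% in NC cells, and the long SRSF4 gene had 4.70% in NKAP_KD cells and 8.42% in NC cells. SRSF5 differed from the other 9 by having nearly equal lengths, 6436 bp in NKAP_KD cells and 6540 bp in NC cells, and its place below 1 did not hold under 5 other settings given in the closing section.

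**Figure D3:**
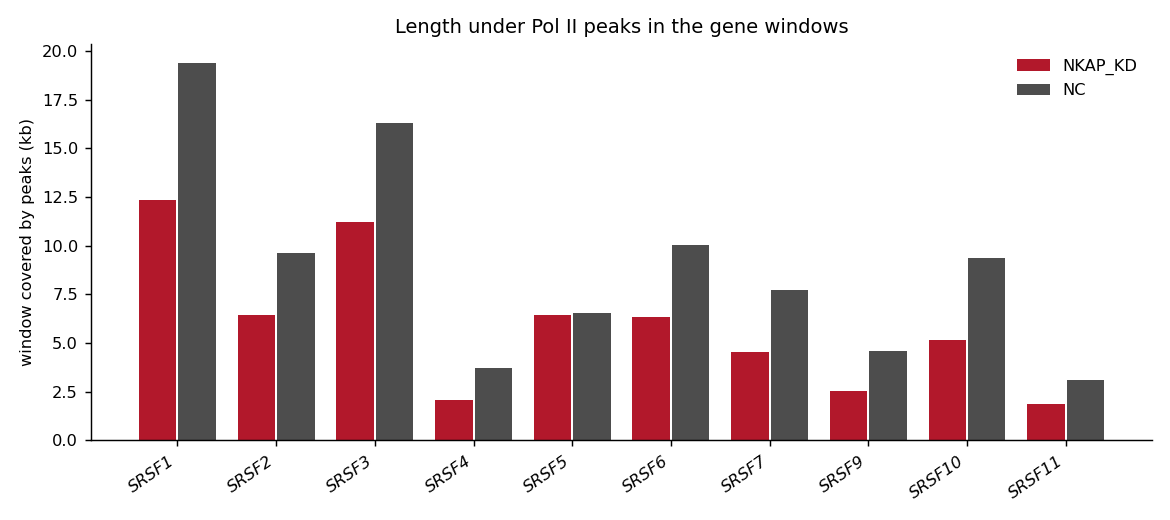
Length of each SR gene window under Pol II peaks, in kb, as bars for NKAP_KD (left) and NC (right), with 1 library each and so no error bar. Every NKAP_KD bar is the shorter one, with SRSF5 at 6436 bp in NKAP_KD cells and 6540 bp in NC cells the closest pair.

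**Figure D4:**
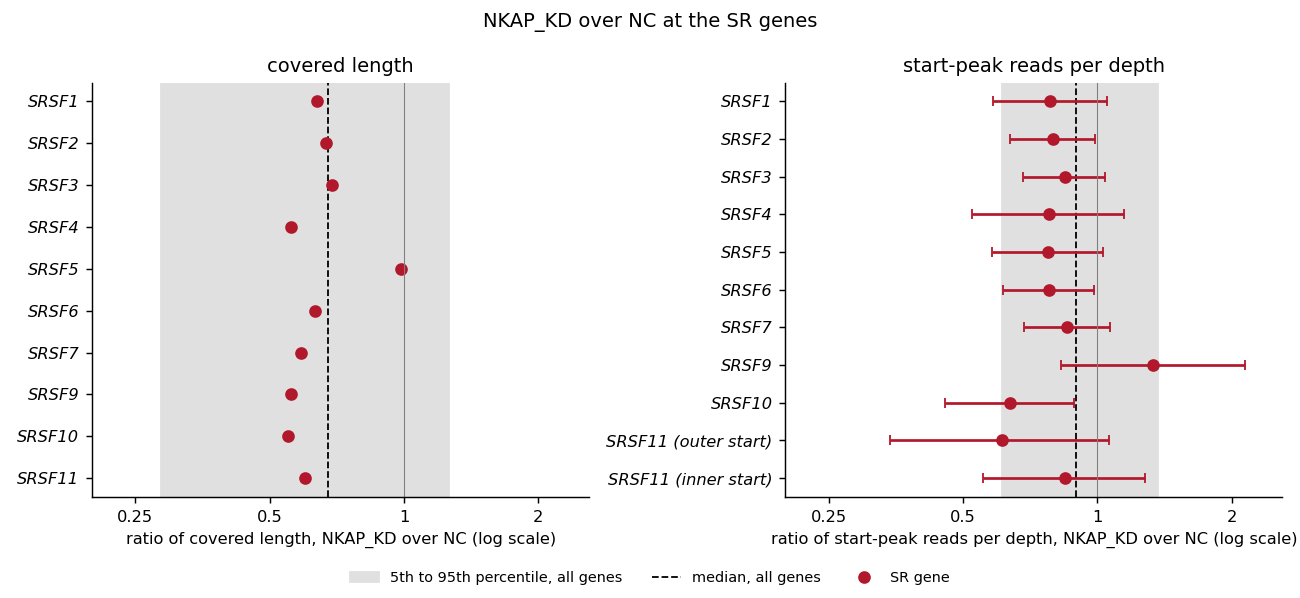
Ratios of NKAP_KD over NC on a log scale for covered length (left) and start-peak reads per depth (right, with 95% exact binomial intervals), beside the median and the 5th to 95th percentile of all protein-coding genes. For covered length the SR genes run from 0.550 to 0.984, all within the band of 0.285 to 1.26; for start reads SRSF9 is the one point above 1.

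The wide NC peaks of the SR genes stood over several shorter NKAP_KD peaks. None of the 10 windows held an NKAP_KD peak of more than 5000 bp (1.04% of all genes did), while those of SRSF1, SRSF2 and SRSF3 held such an NC peak (3.12% of all genes). Of the 34 NC peaks in the SR windows that an NKAP_KD peak overlapped, 14 (41.2%) touched at least 2 NKAP_KD peaks, against 12.4% of the 19701 overlapped NC peaks of the whole list. The median width of the 34 was 1907 bp, against 681 bp over all NC peaks, overlapped or not. A wider peak can touch more peaks, and the 2 shares were not matched for width. The 2 lists were also called at unlike depth, and the splitting was not corrected for it. The SRSF1 peak of 8302 bp, inside the gene, touched 6 NKAP_KD peaks, which covered 63.7% of it. Downstream of SRSF3, an NC peak of 9797 bp touched 6 NKAP_KD peaks, which covered 70.0% of it, and the SRSF3 start peak of 8049 bp touched 3 (62.4%). Hence SRSF1 had 11 NKAP_KD peaks and 6 NC peaks, and SRSF3 had 9 NKAP_KD peaks and 6 NC peaks, over shorter covered lengths in NKAP_KD cells. A count of peaks therefore does not follow the covered length at these genes.

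By position, the largest share of sequence under peaks was at the starts of the SR genes, then at their ends, in both libraries. The 9 genes of known strand were split into the 1000 bp on either side of the start, the 1000 bp on either side of the end, the body between them, and the outer 4000 bp upstream and downstream. They were set beside 8519 protein-coding genes of at least 3000 bp with a start peak in both lists. The start was covered to 79.6% in NKAP_KD cells and 91.1% in NC cells, a ratio of 0.874 (all genes 0.795). The body was covered to 14.0% in NKAP_KD cells and 25.0% in NC cells, a ratio of 0.561 (all genes 0.511). For the 8519 genes the body was covered to 0.838% in NKAP_KD cells and 1.64% in NC cells. Their bodies were longer on average than those of the SR genes, and 3240 of the 8519 had no covered base there in either list. The ends of the SR genes were covered to 48.1% in NKAP_KD cells and 63.0% in NC cells, a ratio of 0.763. In the 8519 genes the ends were covered to 6.27% in NKAP_KD cells and 10.8% in NC cells, a ratio of 0.579. Downstream the SR genes had 26.8% in NKAP_KD cells and 45.0% in NC cells, a ratio of 0.595 (all genes 0.560), and upstream 2.53% in NKAP_KD cells and 7.94% in NC cells, a ratio of 0.319 (all genes 0.519). The 8519 genes were chosen for a start peak in both lists, and 6 of the 9 SR starts were fully covered in NC cells, which limits how far the start ratios can be read against those of the other parts.

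**Figure D5:**
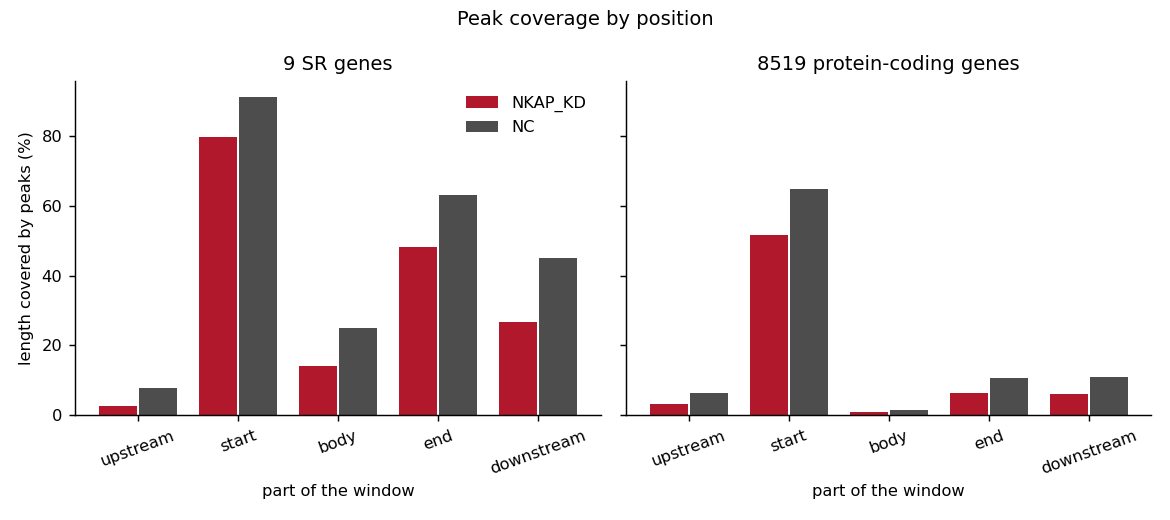
Share of length under Pol II peaks (percent) in the parts of the gene window, NKAP_KD left of NC in each pair, for 9 SR genes of known strand (left) and 8519 protein-coding genes (right). The SR genes stand highest at the start (79.6% in NKAP_KD, 91.1% in NC) and the end (48.1% in NKAP_KD, 63.0% in NC), and the NKAP_KD bar is the shorter of every pair.

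Gene by gene, the body was less covered in NKAP_KD cells at 8 of the 9 SR genes (52.9% of the 8519 genes). Counts for the other parts were 7 at the end (19.9%), 6 downstream (28.4%), 6 upstream (29.2%) and 6 at the start (77.2%), with the other 3 starts fully covered in both libraries. Many of the 8519 genes had no covered base in either list, so fewer of them could differ. These were 3240 in the body, 6400 at the end, 5659 downstream and 5566 upstream. Of the others, 4504 were less covered in NKAP_KD cells and 745 more in the body, and 1695 less and 362 more at the end. Downstream 2423 were less covered and 424 more, and upstream 2484 less and 456 more. Less coverage was thus the commoner direction among all genes with peaks in these parts too. SRSF5 was the exception in the body, with 1371 bp in NKAP_KD cells and 930 bp in NC cells. Downstream, SRSF5 (1997 bp in NKAP_KD cells, 1892 bp in NC cells) and SRSF1 (1205 bp in NKAP_KD cells, 1071 bp in NC cells) had slightly more in NKAP_KD cells. At the end the exception was SRSF6, with 2001 bp in NKAP_KD cells and 1676 bp in NC cells. Of these, the SRSF1 stretch lies on the peak shared with VEZF1 and part of the SRSF5 stretch on peaks shared with SLC10A1.

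In the 5000 bp past the annotated end, peaks lay in both libraries at 8 of the 9 SR genes of known strand, against 24.2% of the 8519 genes. These 5000 bp were less covered in NKAP_KD cells at 7 of the 9, against 30.8% of the 8519 genes, most of which had nothing there to lose. SRSF3 had 4085 bp covered there in NKAP_KD cells and 4873 bp in NC cells, and no other protein-coding gene was reached by these peaks. SRSF7 had 311 bp in NKAP_KD cells and 2358 bp in NC cells. At SRSF6 the length was 1685 bp in NKAP_KD cells and 2973 bp in NC cells. SRSF1 was the exception among the 8, with 2205 bp in NKAP_KD cells and 2071 bp in NC cells, on the peak shared with VEZF1. The peaks past SRSF10 reached PNRC2, and the strongest had 79 reads in NKAP_KD cells and 117 in NC cells. All peaks past SRSF9 reached GATC, and some of those past SRSF5 reached SLC10A1. The counts of genes with peaks past the end therefore cannot be assigned to the SR genes alone. At SRSF11 the end and the sequence downstream of it held no peak in either library.

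Almost every NKAP_KD peak in the SR windows had an NC peak on it. Of the 56 NKAP_KD peaks 54 (96.4%, 95% Wilson interval 87.9 to 99.0) were overlapped by an NC peak, against 82.8% of the whole list. Of the 51 NC peaks 34 (66.7%, 53.0 to 78.0) were overlapped by an NKAP_KD peak, against 54.2% of the whole list. Both intervals count each peak as independent, although 14 NC peaks each touched at least 2 NKAP_KD peaks. They are therefore too narrow to set the SR shares apart from those of the whole lists. The 2 peaks of the NKAP_KD list alone lay in the body of SRSF7, with 11 and 14 reads. The 17 peaks of the NC list alone lay at 8 genes and had 10 to 25 reads, and none was at a start. Of these, 7 lay in bodies, 6 downstream, 2 upstream and 2 at ends. Their authors' folds ran from 3.01 to 7.71 with a median of 5.25, against 7.45 for the 34 overlapped NC peaks of the SR windows. The median over the whole NC list was 6.69, but that list holds overlapped peaks too, so it is not a like set.

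Genes that work with the SR proteins were mostly less covered in NKAP_KD cells, as were 87.3% of all genes covered in both lists. The lists were SR-like and SR-related proteins, the enzymes and import receptors of SR proteins, and factors of export and decay of SR transcripts. Of the 23 SR-like and SR-related genes 22 had peaks in both lists and SRSF12 had none, and 21 of the 22 were less covered in NKAP_KD cells (ratio of summed length 0.577, against 0.627 over all protein-coding windows). LUC7L3, a relative of a yeast U1 snRNP protein, was the exception, with 2745 bp in NKAP_KD cells and 2256 bp in NC cells. SNRNP70, the U1 snRNP protein that SR proteins contact, had 70 start reads in NKAP_KD cells and 100 in NC cells, a ratio per depth of 0.817. TRA2B, an SR-like activator of exon inclusion, had 52 in NKAP_KD cells and 90 in NC cells, a ratio per depth of 0.674, the lowest of this list. RSRC2 and RBM25, which with SNRNP70 had the highest NKAP_KD folds of the list, had ratios of 0.861 and 0.770. No intervals were computed for the ratios of these lists. Fewer start reads per depth were found at 16 of 19 genes with a start pair, and the median ratio was 0.847. The share was 67.8% over all genes and 79.5% over genes with at least 36 NC start reads.

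All 14 genes for SR kinases, phosphatases and import had peaks in both lists, and 13 were less covered in NKAP_KD cells (ratio 0.545). SRPK1, the main cytoplasmic SR kinase, had 42 start reads in NKAP_KD cells and 68 in NC cells, a ratio per depth of 0.721. CLK1, a nuclear SR kinase, had 52 in NKAP_KD cells and 56 in NC cells, which is a ratio per depth of 1.08. CLK4 had almost the same covered length, 1061 bp in NKAP_KD cells and 1057 bp in NC cells. TNPO3, the import receptor, had 31 start reads in NKAP_KD cells and 51 in NC cells (0.709). In this list 11 of 13 genes had fewer start reads per depth, with a median ratio of 0.845. Of 10 export and decay genes 9 had peaks in both lists and all 10 were less covered in NKAP_KD cells (ratio 0.565). The like share is the 86.1% of genes covered in either list. UPF2 was nearly equal, with 1632 bp in NKAP_KD cells and 1635 bp in NC cells. UPF3B, a decay factor, had a peak in the NC list only, 484 bp wide. NXF1, the export receptor, had 117 start reads in NKAP_KD cells and 134 in NC cells, a ratio per depth of 1.02, on a peak shared with STX5. In this list 5 of 8 genes had fewer per depth (median ratio 0.926). The median ratios of the 3 lists lay between 0.845 and 0.926, near the 0.898 of all genes and the 0.856 of genes with at least 36 NC start reads. For these lists too, 87.3% of all genes covered in both lists were less covered. Fewer start reads per depth were found at 67.8% of all genes and 79.5% of those with at least 36 NC start reads. The summed length over all protein-coding windows had a ratio of 0.627.

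The osteosarcoma label was set beside marker genes. Peaks lay in both lists at 8 of 11 mesenchymal and osteosarcoma markers, among them VIM, RUNX2 and COL1A1, against 64.7% of all genes, and in neither at COL1A2, SPP1 and TWIST1. At 2 of the 8, SP7 and BGLAP, the strongest peak lay over 1000 bp from the gene and reached neighbours. Of other cell types, 0 of 4 hepatocyte, 0 of 4 epithelial, 2 of 4 lymphocyte and 3 of 3 neuron markers had peaks in both, and the epithelial gene CDH1 had one in the NC list only. The strongest peaks at the neuron genes RBFOX3 and SYP and at the lymphocyte gene PTPRC reached no other protein-coding gene. NKAP had 13 start reads in NKAP_KD cells and 12 in NC cells, and since an siRNA acts on the transcript, which was not measured, this does not check the knockdown.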

How the data were processed

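The submitters' processing notes name bcl2fastq 2.17, Trimmomatic 0.33, Bowtie 1.1.2 and MACS2 2.1.0, on hg38. No label gives their settings, the placing of reads that map to several sites, or the library that the peak caller took as background. Each list holds the peaks of 1 library, not of pooled libraries. The deposited columns give a score (10 times the −log10 q-value, without decimals), the fold enrichment at the summit, the −log10 p-value, the −log10 q-value and the summit position, all the authors' values. The lowest −log10 q-value was 3.02 in the NKAP_KD list and 3.01 in the NC list. Sequences other than chromosomes 1 to 22 and X, with 1526 NKAP_KD and 2218 NC peaks, were left out.

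Genes were matched by symbol to the RefSeq table of GRCh38, and all 10 matched. The table holds no exons, and strand came from the promoter table. Overlap meant at least 1 bp. Reads and background at each summit were solved from the authors' deposited fold, as (pileup + 1)/(background + 1), and the Poisson p-value, where the pileup was the reads times a scale found for each list (0.926 for NKAP_KD, 1.00 for NC), so that NKAP_KD peaks were called at 0.793 times the NC depth; the reads given are unscaled. The code was tested on simulated data. Whole reads fitted 26387 of 26387 NKAP_KD and 36338 of 36345 NC peaks, to within 0.01 of the −log10 p-value. Depth came from the lowest background of each list. A start peak was the strongest within 1000 bp of a listed start, for SRSF2 of either gene end. A peak was shared with a neighbour when it lay on another protein-coding gene or within 1000 bp of it. Alternatives changed the window, the peak threshold, the overlap and the use of shared peaks. The 10 genes and the lists of other genes were chosen with earlier results of these data known. Python 3.11.15, numpy 2.4.6, pandas 2.3.3, scipy 1.17.1 and matplotlib 3.10.9 were used.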

Additional observations from a re-analysis of the deposited data

How the results depend on the processing

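The direction of the summed covered length, lower in NKAP_KD cells, was the same in all 7 alternatives. Against 0.653, the ratio was 0.638 with −log10 q of 5 or more, 0.702 with equal numbers of strongest peaks, 0.563 with the strongest 10000 of each list, 0.691 with windows of 1000 bp, 0.658 with windows of 0 bp, 0.679 without peaks shared with neighbours and 0.650 for summits inside the window. The strongest 10000 left 17 NKAP_KD and 14 NC peaks, because few member peaks rank that high. NC peaks overlapped stood at 80.6% with equal numbers, 92.9% with the strongest 10000 and 31.4% with an overlap of 50% of both peaks. NKAP_KD peaks overlapped stood at 82.4% with the strongest 10000 and 28.6% with the 50% overlap, where split peaks no longer count. The whole lists have no share here under these settings, so these values show only how the SR shares move. A less covered window in NKAP_KD cells was lost by SRSF5 with −log10 q of 5 or more, equal numbers and windows of 1000 and 0 bp (9 of 10 left), by SRSF5, SRSF6 and SRSF9 with the strongest 10000 (7 left), and by SRSF2 and SRSF9 without shared peaks (8 left). Peaks in both lists were lost by SRSF9 with the strongest 10000, by SRSF2 and SRSF9 without shared peaks, whose peaks all reach neighbours, and by SRSF2 with the 50% overlap. Fewer start reads held at 9 of 10 genes relative to the median of all genes, with the background taken off and with starts of 500 bp, 3 alternatives chosen after seeing the data. No paired analysis was possible because each condition has 1 ChIP library. Peaks of 8 reads are the least the lists hold, so weaker Pol II is not seen at this depth.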

Other observations

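RefSeq lists 13 pseudogenes of 7 of the SR genes, near-copies of their sequence. None of the 13 had a Pol II peak in the NKAP_KD list or in the NC list. How the authors placed reads that fit both a gene and a copy is not given in these sources.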
